A study of Mus musculus with 7 samples.

Results

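The genes described here are 9 subunits of the proteasome, chosen by name from the 21878 rows of the count table: 5 inducible subunits (Psmb8, Psmb9, Psmb10, Psme1 and Psme2) and 4 constitutive counterparts (Psmb5, Psmb6, Psmb7 and Psme3). All 9 were found, and all 9 passed the filter on low counts that left 12997 genes for testing. Messenger RNA was measured in 7 libraries of tumours grown from B16F10, a single pigmented mouse melanoma line, in female C57BL/6J mice. In the Zelnorm group (4 libraries, MBZ_9, MBZ_11, MBZ_13 and MBZ_15) the mice were given Zelnorm, the trade name of tegaserod, by mouth at 1.25 mg/kg on every other day. The control group (NC) held 3 libraries, NC_5, NC_6 and NC_10. The labels name no genetic change in any mouse and do not say what the control mice were given. The treatment field and the design text name the treated group Zelnorm, while its titles use the letters MBZ, which the labels do not spell out, so the identity of the drug rests on the name Zelnorm alone. Separate animals are not named for the libraries, and the spread behind each p-value may therefore be partly technical. Whole tumours were sequenced, so transcripts of melanoma cells and of host cells were counted together.

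The proteasome is a barrel-shaped protease that degrades ubiquitin-tagged proteins, and its catalytic sites lie in the beta rings of the barrel. Psmb5 carries the chymotrypsin-like site, Psmb6 the caspase-like site and Psmb7 the trypsin-like site. Interferon gamma induces Psmb8, Psmb9 and Psmb10, which take the places of Psmb5, Psmb6 and Psmb7 in newly built particles, and the resulting immunoproteasome favours peptides that fit MHC class I molecules. Psme1 and Psme2 form an interferon-inducible cap of the barrel (PA28 alpha and beta), while Psme3 forms a related, mainly nuclear cap (PA28 gamma). Leukocytes carry the immunoproteasome without induction, whereas many tumour cells depend on interferon for it.

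Psmb9 (NCBI gene 16912) and Psmb8 (NCBI gene 16913) lie in the MHC region of chromosome 17, at 34182030 to 34187330 and 34198195 to 34201454 in GRCm38.p6, with Tap1, a subunit of the peptide transporter, between them (34187556 to 34197225) and its partner Tap2 beside Psmb8 (34204479 to 34216321). Psmb10 (19171) lies on chromosome 8 at 105935728 to 105938392. Psme1 (19186) and Psme2 (19188) are neighbours on chromosome 14, at 55578494 to 55581527 and 55587440 to 55591101, and Psmb5 (19173) lies on the same chromosome at 54614120 to 54617995. Psmb6 (19175) and Psme3 (19192) are on chromosome 11, at 70525324 to 70527858 and 101316213 to 101323537, and Psmb7 (19177) is on chromosome 2 at 38588046 to 38643952. In the GENCODE annotation, exons of Psmb9 and Tap1 on opposite strands share 212 bases, exons of Psmb8 share 186 bases with the antisense gene Gm20496, and exons of Psmb7 share 405 bases with Nek6 on the other strand. The strand setting of the counting is not given in the sources used here, so reads of those stretches may be split or dropped. Psme2 has a close copy without introns, Psme2b on chromosome 11, and part of the count of each is uncertain.

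Sequence before the start site was available from RefSeq (GRCm38.p6) for 8 of the members, that is for all but Psmb7. The stretches of Psmb8, Psmb9 and Psme1 are shown for inducible subunits whose transcripts varied together, and that of Psmb5 for a constitutive one. Each runs from 120 bases before the start site to 30 bases after it, 5′ to 3′ on the strand of the gene, with capitals marking a match to 1 of the motifs named after them.
Psmb8, chr17:34198075-34198224, strand +: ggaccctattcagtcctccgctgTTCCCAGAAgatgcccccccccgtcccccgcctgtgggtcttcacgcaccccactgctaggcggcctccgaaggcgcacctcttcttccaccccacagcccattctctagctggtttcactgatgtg
Psmb9, chr17:34187301-34187450, strand -: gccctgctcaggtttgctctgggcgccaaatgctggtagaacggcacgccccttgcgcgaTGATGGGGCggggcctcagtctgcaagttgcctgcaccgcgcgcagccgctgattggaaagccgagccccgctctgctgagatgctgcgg
Psme1, chr14:55578374-55578523, strand +: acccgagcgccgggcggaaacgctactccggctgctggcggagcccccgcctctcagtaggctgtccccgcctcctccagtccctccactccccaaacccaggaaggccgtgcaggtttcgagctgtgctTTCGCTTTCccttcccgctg
Psmb5, chr14:54617966-54618115, strand -: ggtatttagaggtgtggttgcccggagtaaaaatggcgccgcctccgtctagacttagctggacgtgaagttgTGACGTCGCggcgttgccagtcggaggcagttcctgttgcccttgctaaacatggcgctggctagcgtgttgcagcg
Windows of 300 bases (250 before and 50 after the start) were searched on both strands for GAAANNGAA, the core of the interferon-stimulated response element, for TTCNNNGAA, the gamma activated site, and for TGANNNNGC, the core of the antioxidant response element. No match in a member overlapped another. Among the 8 members, the first motif was matched in Psme1 alone, as TTCGCTTTC on the opposite strand 11 bases after the start, and the second in Psmb8 alone, as TTCCCAGAA starting 97 bases before it. The third was matched in Psmb5, Psmb6, Psmb8, Psmb9 and Psme2, and the match in Psmb8 starts 24 bases after the start and runs past the stretch shown. Psmb5 held another match, TGAATCAGC, which starts 42 bases after the start and lies beyond its stretch shown. Of all 32851 windows of this length, 8.56% held the first motif, 8.3% the second and 41.3% the third. A match describes these letters and is not a measured binding site.

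Levels are given in CPM, the usual read-depth unit, here computed with TMM-scaled library sizes. Libraries held 16903598 to 19666598 counts in the Zelnorm group and 18079258 to 19547390 in NC. The pigment cell genes that define the melanoma line were high in every library (Pmel, a melanosome protein gene, from 6120 to 7289 CPM in Zelnorm and 5707 to 6706 CPM in NC). Of 8 such markers 5 were higher and 3 lower in Zelnorm, with a median log2 fold change of 0.03. The largest value was that of Mitf, at 0.60 ± 0.16 (SE, edgeR adjusted p = 0.215). Of 21 pairs of libraries none agreed within sampling noise (chi-square per degree of freedom of at least 6.54). NC_10 stood apart from the other NC libraries for the inducible subunits, being the lowest of all 7 libraries for each of the 5. Results for these subunits and for the ratios are therefore given with and without it.

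The inducible subunits were higher on average in the Zelnorm tumours and the constitutive subunits were close to equal in the groups. All 5 inducible members had a positive log2 fold change of Zelnorm over NC, from 0.39 to 1.30 with a median of 0.68, and the 4 constitutive members ran from -0.06 to -0.03 with a median of -0.06. Over all 12997 genes tested the median was 0.00 and 50.2% had a fold change above 0. None of the 9 passed the test across all genes (edgeR quasi-likelihood test with Benjamini-Hochberg adjustment; smallest adjusted p = 0.221), which called 0.0308% of all genes higher. At an unadjusted p under 0.05, 4 of the 9 members were higher (Psmb8, Psmb9, Psmb10 and Psme2) and 0 were lower, against 6.94% of all genes higher and 3.38% lower. Every Zelnorm library lay above every NC library for 3 of the 9 (Psmb8, Psmb9 and Psme2), against 5.33% of all genes, and the reverse held for 0 of the 9, against 4.27% of all genes.

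**Figure D1:**
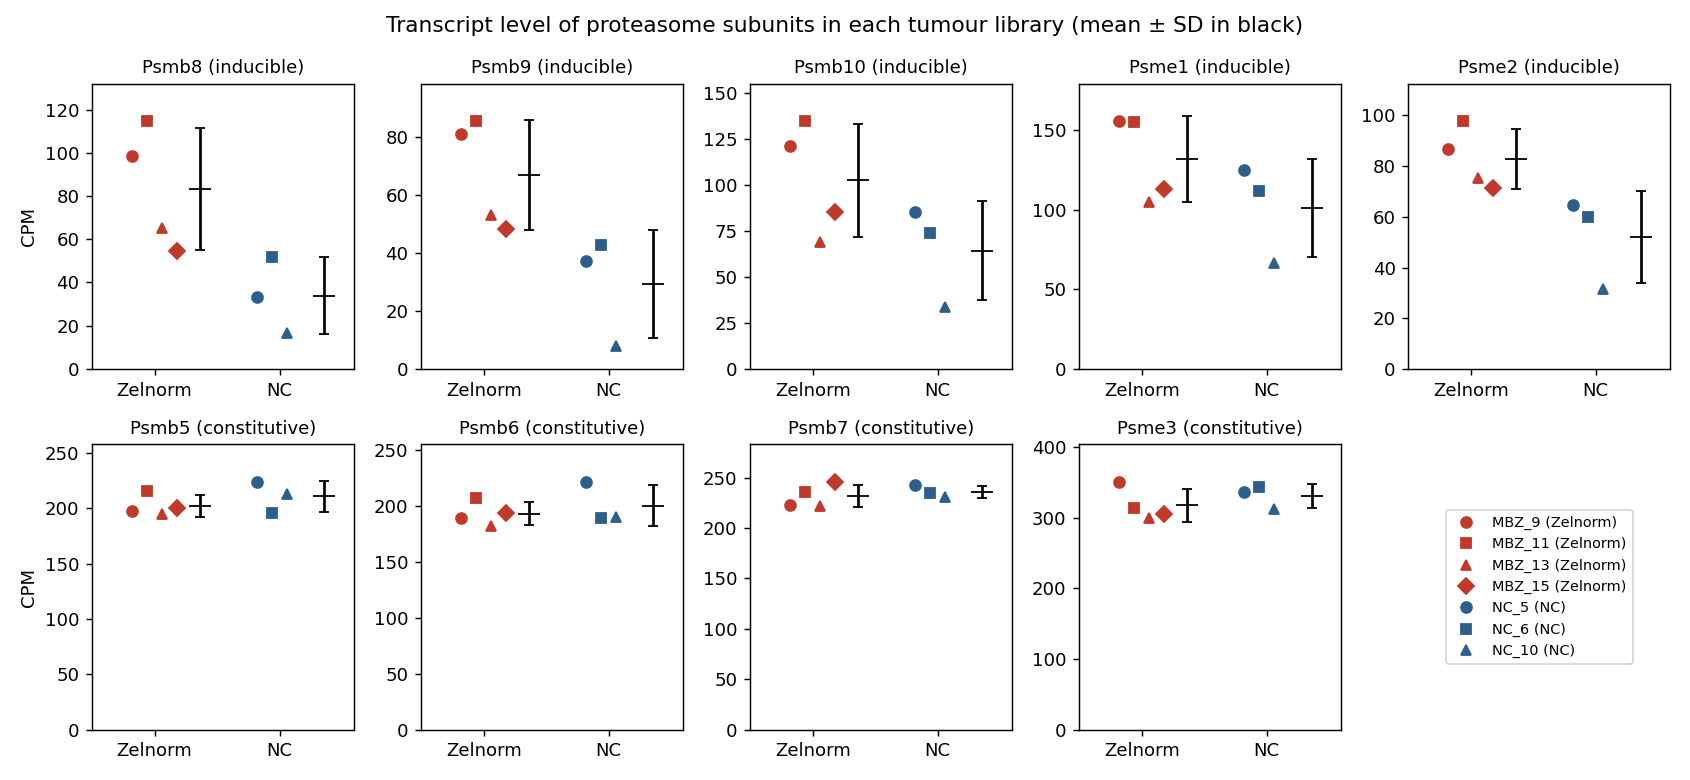
Transcript level in CPM (y axis, from 0) of the 9 subunits in 4 Zelnorm and 3 NC libraries, 1 symbol per library, with the group mean ± SD in black. The inducible subunits in the upper row are lowest in NC_10 and highest in MBZ_9 or MBZ_11, and the constitutive subunits in the lower row are nearly level.

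Psmb8, the inducible chymotrypsin-like subunit, had 98.3, 115, 65.4 and 54.7 CPM in MBZ_9, MBZ_11, MBZ_13 and MBZ_15, against 33.4, 51.9 and 16.5 CPM in NC_5, NC_6 and NC_10. The groups did not overlap, although MBZ_15 and NC_6 lay close together. The means were 83.3 ± 28.1 CPM in Zelnorm and 34.0 ± 17.7 CPM in NC (SD, n = 4 and 3), and the log2 fold change was 1.30 ± 0.35 (SE; edgeR adjusted p = 0.221), or 0.96 ± 0.28 without NC_10. It ranked 216th of all genes by p, the highest place of the 9 members. Psmb9, the inducible counterpart of Psmb6, had 81.0, 85.6, 52.9 and 48.4 CPM in the same Zelnorm libraries, against 37.1, 42.6 and 7.89 CPM in the NC libraries. Again the groups did not overlap, and NC_10 was far below every other library. The means were 67.0 ± 19.0 CPM in Zelnorm and 29.2 ± 18.7 CPM in NC, with a log2 fold change of 1.20 ± 0.43 (edgeR adjusted p = 0.363), which was 0.74 ± 0.21 without NC_10. Psmb10, the inducible trypsin-like subunit, had 121, 135, 68.9 and 85.1 CPM in the Zelnorm libraries, against 85.1, 73.8 and 33.9 CPM in the NC libraries. Here the groups overlapped, since MBZ_13 lay below NC_5 and NC_6. The log2 fold change was 0.68 ± 0.30 (edgeR adjusted p = 0.472) and 0.37 ± 0.22 without NC_10.

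The activator subunits Psme1 and Psme2, which assemble together into the same ring, differed in how well they separated the groups. Psme2 had 87.0, 97.9, 75.3 and 71.6 CPM in MBZ_9, MBZ_11, MBZ_13 and MBZ_15, against 64.7, 60.0 and 31.5 CPM in NC_5, NC_6 and NC_10, so that no NC library reached the lowest Zelnorm library. Its log2 fold change was 0.67 ± 0.21 (edgeR adjusted p = 0.296), and 0.41 ± 0.12 without NC_10. Psme1 had 156, 155, 105 and 113 CPM in the Zelnorm libraries, against 125, 112 and 66.3 CPM in the NC libraries. Its groups overlapped, with MBZ_13 below NC_5 and NC_6 and MBZ_15 below NC_5. Its log2 fold change was 0.39 ± 0.21 (edgeR adjusted p = 0.562), and 0.16 ± 0.15 without NC_10. Whether the fold changes of Psme1 and Psme2 differ was not tested.

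The constitutive subunits varied little. Psmb5 had 198, 216, 195 and 200 CPM in MBZ_9, MBZ_11, MBZ_13 and MBZ_15, against 224, 196 and 213 CPM in NC_5, NC_6 and NC_10. Its log2 fold change was -0.06 ± 0.06 (edgeR adjusted p = 0.798). Psmb6 (193 ± 10.6 CPM in Zelnorm, 200 ± 18.5 CPM in NC), Psmb7 (232 ± 11.3 CPM in Zelnorm, 236 ± 6.20 CPM in NC) and Psme3 (317 ± 23.1 CPM in Zelnorm, 331 ± 16.5 CPM in NC) had log2 fold changes of -0.05 ± 0.07, -0.03 ± 0.05 and -0.06 ± 0.07 (edgeR adjusted p = 0.853, 0.913 and 0.816). The groups overlapped for all 4, and NC_10 was not the lowest library for any of them. The sign of the Psmb6 value turned to 0.03 without NC_5. Between the highest and the lowest library the constitutive subunits differed by 1.11-fold (Psmb7) to 1.22-fold (Psmb6), whereas the inducible ones differed by 2.35-fold (Psme1), 3.11-fold (Psme2), 3.98-fold (Psmb10), 6.94-fold (Psmb8) and 10.9-fold (Psmb9).

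**Figure D2:**
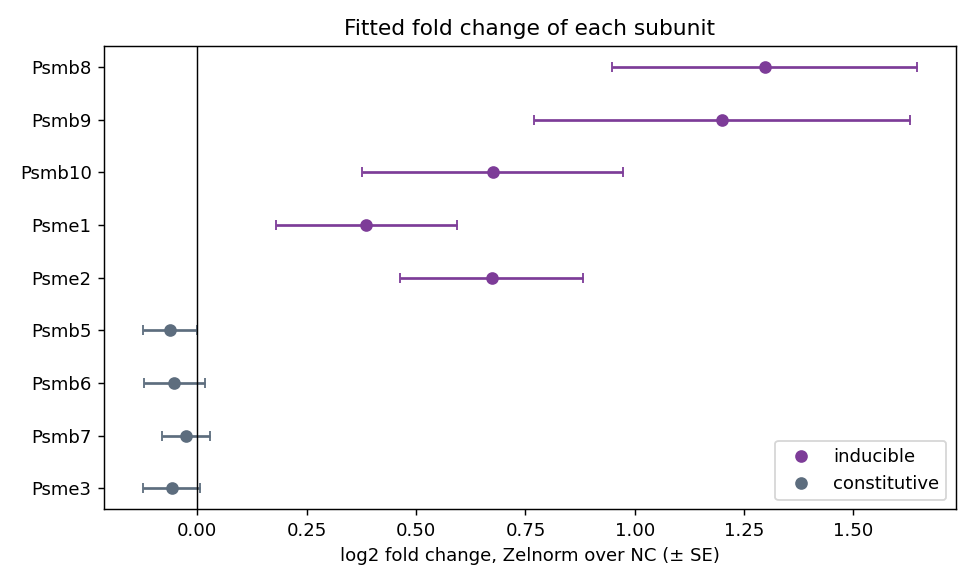
Fitted log2 fold change of Zelnorm over NC (x axis) with its SE for each of the 9 subunits, from the edgeR fit over all genes. The 5 inducible subunits lie between 0.39 and 1.30 and the 4 constitutive ones between -0.06 and -0.03.

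Across the 7 libraries the inducible subunits varied together. The 10 pairs among them had Pearson correlations of log2 CPM from 0.878 to 0.991, the 20 pairs of an inducible with a constitutive subunit from -0.349 to 0.425, and the 6 pairs of constitutive subunits from -0.058 to 0.882. These values are a description over 7 libraries that share the group difference and the low library NC_10. Within the Zelnorm group the libraries were not alike, since MBZ_9 and MBZ_11 had more of each inducible transcript than MBZ_13 and MBZ_15. Outside NC_10, NC_5 had more Psmb10, Psme1 and Psme2 than NC_6, and NC_6 had more Psmb8 and Psmb9 than NC_5. NC_10 lay below the mean of the other NC libraries by a log2 difference of -2.32 for Psmb9, -1.33 for Psmb8, -1.22 for Psmb10, -0.98 for Psme2 and -0.83 for Psme1, against 0.02 for Psmb5, -0.05 for Psmb7, -0.11 for Psmb6 and -0.12 for Psme3.

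To set subunits against each other, CPM were divided by the length of their GENCODE exons in kilobases. On this scale the constitutive catalytic subunits were the most abundant members in both groups, with 242 ± 13.3 (Psmb6), 225 ± 10.6 (Psmb5) and 200 ± 9.77 (Psmb7) CPM per kilobase in Zelnorm, and 251 ± 23.2, 235 ± 15.7 and 203 ± 5.36 in NC. The libraries of Psmb6 and Psmb5 overlapped, while Psmb7 lay below both in either group. Psme3 (119 ± 8.67 in Zelnorm, 124 ± 6.17 in NC) and Psme1 (119 ± 24.3 in Zelnorm, 90.8 ± 27.6 in NC) came next, overlapping in Zelnorm but not in NC, where Psme1 was lower in every library. Psme2 (85.0 ± 12.2 in Zelnorm, 53.4 ± 18.4 in NC) and Psmb10 (78.2 ± 23.4 in Zelnorm, 49.0 ± 20.5 in NC) followed and could not be placed in order beyond their spread. Psmb8 (51.2 ± 17.2 in Zelnorm, 20.9 ± 10.9 in NC) and Psmb9 (49.5 ± 14.1 in Zelnorm, 21.6 ± 13.8 in NC) were the lowest and did not differ from each other beyond their spread. In no library did an inducible catalytic subunit reach the level per length of its constitutive counterpart.

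The ratio of each inducible subunit to its counterpart within a library does not depend on library size. For Psmb8 to Psmb5 the log2 count ratio was -1.01, -0.91, -1.58 and -1.87 in MBZ_9, MBZ_11, MBZ_13 and MBZ_15, against -2.75, -1.92 and -3.69 in NC_5, NC_6 and NC_10. Every Zelnorm library was above every NC library, by 1.44 on average (exact permutation test, 2-sided p = 0.0286, adjusted over the 4 ratios tested to 0.0381). No split of these 7 libraries can give a lower p, and the difference was 0.99 without NC_10. The 4 ratios were chosen with earlier results of these data known and share the same libraries. Their p-values therefore describe how far the groups separate and are no independent support. Among all genes tested, 5.33% lay higher in every Zelnorm library than in any NC library and 4.27% lower. Per kilobase of exon, Psmb8 stood at 0.226 ± 0.0688 of Psmb5 in Zelnorm and at 0.0905 ± 0.0522 in NC. For Psmb9 to Psmb6 the log2 ratio was -1.23, -1.28, -1.78 and -1.999 in the same Zelnorm libraries, against -2.58, -2.15 and -4.59 in the NC libraries. The groups again did not overlap and differed by 1.53 (exact permutation test, 2-sided p = 0.0286, adjusted 0.0381), a difference that was 0.79 without NC_10. Per kilobase the ratio was 0.204 ± 0.0521 in Zelnorm and 0.0856 ± 0.0556 in NC.

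For Psmb10 to Psmb7 the log2 ratio was -0.88, -0.80, -1.69 and -1.53 in MBZ_9, MBZ_11, MBZ_13 and MBZ_15, against -1.51, -1.67 and -2.77 in NC_5, NC_6 and NC_10. The groups overlapped, and the difference of 0.76 did not pass the test (exact permutation test, 2-sided p = 0.2, adjusted 0.2). It was 0.36 without NC_10. Per kilobase Psmb10 stood at 0.392 ± 0.118 of Psmb7 in Zelnorm and 0.239 ± 0.0960 in NC. For the geometric mean of Psme1 and Psme2 to Psme3 the log2 ratio was -1.59, -1.35, -1.76 and -1.76 in the Zelnorm libraries, against -1.90, -2.07 and -2.77 in the NC libraries. The groups did not overlap and differed by 0.63 (exact permutation test, 2-sided p = 0.0286, adjusted 0.0381). The difference was 0.37 without NC_10, and with Psme1 alone on top it was 0.47 and did not pass (exact permutation test, 2-sided p = 0.143). With NC_10 left out, no ratio passed (exact permutation test, 2-sided p = 0.133 for Psmb8, Psmb9 and the activators and 0.4 for Psmb10), and 4 against 2 libraries cannot give a p below 0.0667. As differences of medians over all 7 libraries, the ratios of Psmb8, Psmb9 and the activators differed by 1.46, 1.05 and 0.39, and none passed (exact permutation test, 2-sided p = 0.0571, 0.114 and 0.114).

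**Figure D3:**
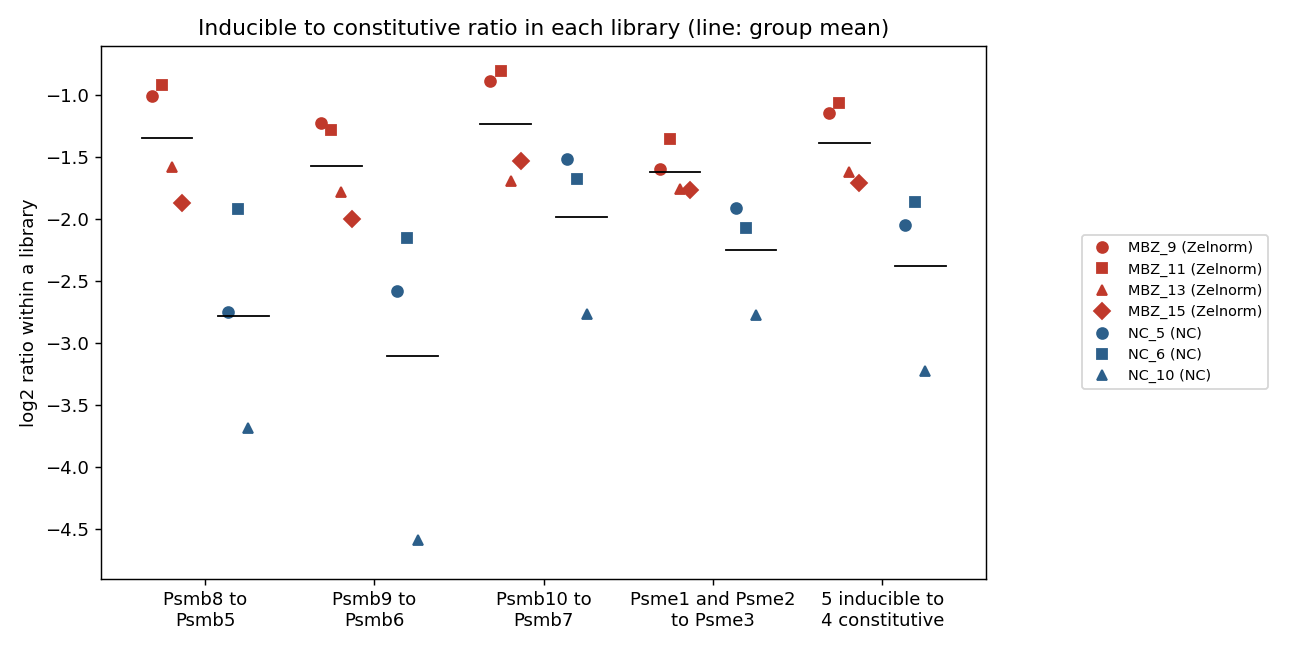
Log2 ratio of inducible to constitutive subunits within each library (y axis) for the 4 counterpart ratios and for the mean of all members, 1 symbol per library and a line at the group mean. The Zelnorm libraries lie above the NC libraries except for Psmb10 to Psmb7, and NC_10 is the lowest library in each.

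Over all members, the mean log2 CPM of the 5 inducible minus that of the 4 constitutive subunits was -1.14, -1.06, -1.62 and -1.71 in MBZ_9, MBZ_11, MBZ_13 and MBZ_15, against -2.04, -1.86 and -3.22 in NC_5, NC_6 and NC_10. The groups did not overlap. The means differed by 0.99, or 0.57 without NC_10. The step from the lowest Zelnorm library to the highest NC library was small beside the spread within either group (SD 0.328 in Zelnorm and 0.740 in NC).

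The rest of the particle was close to equal in the groups. Of 31 other subunits of the core and the regulatory particle, 30 were testable, 7 were higher and 23 lower in Zelnorm, with log2 fold changes between -0.14 and 0.12 and a median of -0.03, and 0 passed the edgeR test (smallest adjusted p = 0.403). At an unadjusted p under 0.05, 1 was higher (Psma4) and 1 lower (Psmd6), against 6.94% and 3.38% of all genes. Among the alpha ring subunits, which form the gate of the barrel, Psma4 (114 ± 4.01 CPM in Zelnorm, 104 ± 3.35 CPM in NC) lay higher in every Zelnorm library and Psma6 (136 ± 2.91 CPM in Zelnorm, 146 ± 5.14 CPM in NC) lower, with log2 fold changes of 0.12 ± 0.05 and -0.11 ± 0.05 (edgeR adjusted p = 0.464 and 0.498). Psma8, the testis form of an alpha subunit, and Psmb11, the thymus form of the chymotrypsin-like subunit, had at most 2 counts in any library, below the floor of 3 counts. The ATPases Psmc1 to Psmc6 ran from -0.06 to a value just below 0. Of the non-ATPase subunits of the regulatory particle the smallest p belonged to Psmd6, at 90.2 ± 2.95 CPM in Zelnorm and 99.3 ± 2.21 CPM in NC (log2 fold change -0.14 ± 0.05, edgeR adjusted p = 0.403).

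Assembly factors showed the same small range, from -0.12 to 0.04. Pomp, the maturation factor that helps both kinds of core particle assemble, had 130, 132, 134 and 137 CPM in MBZ_9, MBZ_11, MBZ_13 and MBZ_15, against 147, 143 and 146 CPM in NC_5, NC_6 and NC_10. All Zelnorm libraries were below all NC libraries, yet the difference was small (log2 fold change -0.12 ± 0.05, edgeR adjusted p = 0.407). Psme4, the activator PA200, had a log2 fold change of -0.06 ± 0.06 and Psmf1, an inhibitor of the proteasome, -0.05 ± 0.10. Psme2b had 30.7, 35.6, 24.8 and 28.4 CPM in the Zelnorm libraries, against 26.0, 25.3 and 9.40 CPM in the NC libraries, and like Psme2 it was lowest in NC_10 (log2 fold change 0.57 ± 0.28, edgeR adjusted p = 0.531). The transcription factor genes Nfe2l1, which drives constitutive proteasome genes when proteolysis fails, and Nfe2l2 differed by 0.03 ± 0.05 and 0.06 ± 0.08.

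**Figure D4:**
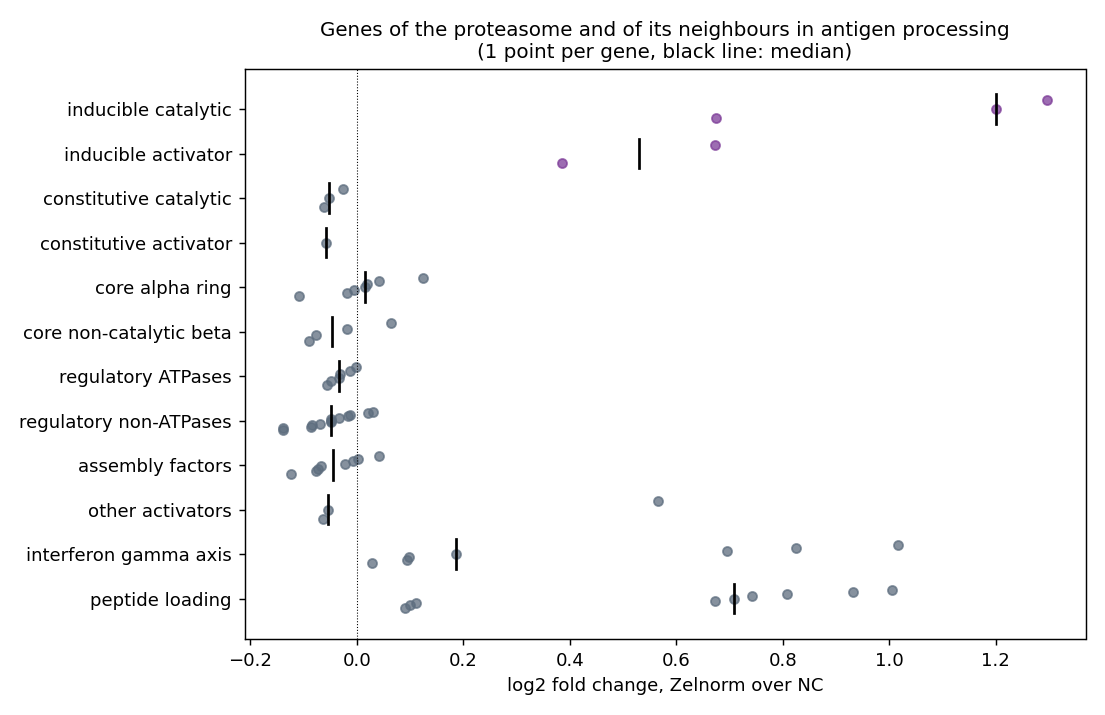
Log2 fold change of Zelnorm over NC (x axis) for the genes of each group, 1 point per testable gene, with the median as a black line. The inducible subunits lie between 0.39 and 1.30, and 6 peptide-loading genes and 3 genes of the interferon gamma axis above 0.6, while the other proteasome genes lie within 0.14 of 0 except for Psme2b at 0.57.

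Genes that act before and after the immunoproteasome in antigen processing were measured in the same libraries. All 9 peptide-loading genes were higher in Zelnorm (median log2 fold change 0.71), against 50.2% of all genes. At an unadjusted p under 0.05, 5 of the 9 were higher, against 6.94% of all genes. In the edgeR test over all genes 0 of the 9 passed (smallest adjusted p = 0.254). Tap1, which carries proteasome products into the endoplasmic reticulum, had 180, 183, 113 and 118 CPM in MBZ_9, MBZ_11, MBZ_13 and MBZ_15, against 95.4, 101 and 26.3 CPM in NC_5, NC_6 and NC_10. The groups did not overlap and NC_10 was again the lowest. Without NC_10 the NC means were 98.1 (Tap1), 55.4 (Tap2), 151 (Tapbp) and 734 (B2m) CPM. With it they were 74.2, 42.7, 125 and 600 CPM, against 149, 81.3, 219 and 1004 CPM in Zelnorm. The fold changes that follow include NC_10. The log2 fold change was 1.01 ± 0.37 for Tap1 (edgeR adjusted p = 0.389), 0.93 ± 0.34 for Tap2 (0.364), 0.81 ± 0.23 for Tapbp, which bridges the transporter to class I molecules (0.254), and 0.74 ± 0.24 for the class I light chain B2m (0.316). The chaperones Calr, Pdia3 and Canx, which serve all glycoproteins, had smaller values, from 0.09 to 0.11.

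Of the interferon gamma axis, all 7 testable genes were higher (median 0.19), against 50.2% of all genes. At an unadjusted p under 0.05, 3 of the 7 were higher, against 6.94% of all genes, and 0 passed the edgeR test over all genes. Nlrc5, the transactivator of class I genes and of Psmb9, had 44.4 ± 7.36 CPM in Zelnorm and 22.1 ± 13.6 CPM in NC, a log2 fold change of 1.02 ± 0.39 (edgeR adjusted p = 0.395). Groups overlapped for Irf1, which binds the Psmb9 and Tap1 promoters, at 118, 123, 67.2 and 80.2 CPM in Zelnorm libraries and 81.1, 80.2 and 18.6 CPM in NC libraries (0.69 ± 0.41, edgeR adjusted p = 0.604). Without NC_10 the NC mean of Nlrc5 was 29.9 CPM. For Irf1 it was 80.6 CPM, or 60.0 CPM with NC_10, against 96.9 CPM in Zelnorm. The receptor genes Ifngr1 (0.10 ± 0.09) and Ifngr2 (0.03 ± 0.07) and the kinase gene Jak1 (0.09 ± 0.06) had small values, and Jak2 had 0.19 ± 0.08. Ifng itself had 6, 16, 3 and 3 counts in the Zelnorm libraries, against 5, 2 and 0 counts in the NC libraries, too few to be tested.

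The 5 genes outside the members whose log2 CPM over the 7 libraries was most like the mean of the inducible subunits were Tapbp (Pearson correlation 0.996), the ADP-ribosyltransferase gene Parp3 (0.996), Tap1 (0.995), the transcription factor gene Batf2 (0.993) and Iigp1, an immunity-related GTPase (0.992). With group means removed, the correlations of these 5 were between 0.988 and 0.998. Tap2 took place 12 among all tested genes, Nlrc5 place 39, Irf1 place 41 and Psme2b place 52. The libraries are the same 7 for every gene, and each of these correlations carries the low value of NC_10.

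Immune cell transcripts were also higher on average in Zelnorm. All 12 leukocyte markers were higher in Zelnorm (median log2 fold change 0.66), against 50.2% of all genes. At an unadjusted p under 0.05, 8 of the 12 were higher, against 6.94% of all genes. The summed level of the 12 ran from 422 to 597 CPM in Zelnorm and from 351 to 466 CPM in NC. Arhgap30, near level at 157 ± 6.72 CPM in Zelnorm and 156 ± 4.05 CPM in NC, made up much of these sums. Of the macrophage markers 10 of 10 were higher, 7 of them at an unadjusted p under 0.05, against the same 6.94% of all genes (summed level 479 to 697 CPM in Zelnorm and 249 to 498 CPM in NC). Of the T cell markers 8 of 8 were higher (summed level 15.03 to 28.4 CPM in Zelnorm and 10.01 to 14.5 CPM in NC). Among these 8, 1 gene, Cd8a, had an unadjusted p under 0.05, against 6.94% of all genes. No defining marker of these lists was at 0 in any library, and none of the 30 passed the edgeR test over all genes (smallest adjusted p = 0.0946, for Ctss). In bulk tumour, more cells of a type and more RNA per cell cannot be told apart. NC_10 had a mean leukocyte marker level of 4.56 log2 CPM, above the 4.06 of NC_5 and the 3.91 of NC_6, and the lowest level of every inducible subunit. The mean T cell marker level of NC_10 was the lowest of the 7 libraries, at -0.20 log2 CPM against 0.47 in NC_5 and 0.34 in NC_6. That mean rests on few counts in NC_10 (4 for Cd3g, 8 for Cd3d and 12 for Cd8a, though 117 for Lck). Cd2, Cd5 and Cd4 were not lowest in NC_10. With the leukocyte level as a covariate, the log2 fold change was 1.61 ± 0.65 for Psmb8 and 1.99 ± 0.82 for Psmb9 (edgeR adjusted p = 0.823 each). It was 0.80 ± 0.58 for Psmb10, 0.54 ± 0.38 for Psme1 and 0.9998 ± 0.356 for Psme2 (edgeR adjusted p = 0.906, 0.904 and 0.759). Without the covariate the SEs were smaller, at 0.35 for Psmb8 and 0.43 for Psmb9. The leukocyte level was itself higher on average in Zelnorm, so this fit cannot tell the part of leukocytes from that of the group. The part of macrophages and T cells in the difference was not tested. Skeletal muscle markers ran from 5.96 to 332 CPM in Zelnorm and from 5.61 to 38.0 CPM in NC, highest in MBZ_15, MBZ_11 and NC_5, with Myh4 and Myh1 at 0 in NC_6 and NC_10. Leaving out these 3 libraries left MBZ_9 and MBZ_13 against NC_6 and NC_10, so the low library NC_10 weighed more. The log2 fold change was then 1.26 ± 0.47 for Psmb8, 1.41 ± 0.64 for Psmb9, 0.82 ± 0.38 for Psmb10, 0.54 ± 0.27 for Psme1 and 0.82 ± 0.27 for Psme2 (edgeR adjusted p = 0.999 each).

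**Figure D5:**
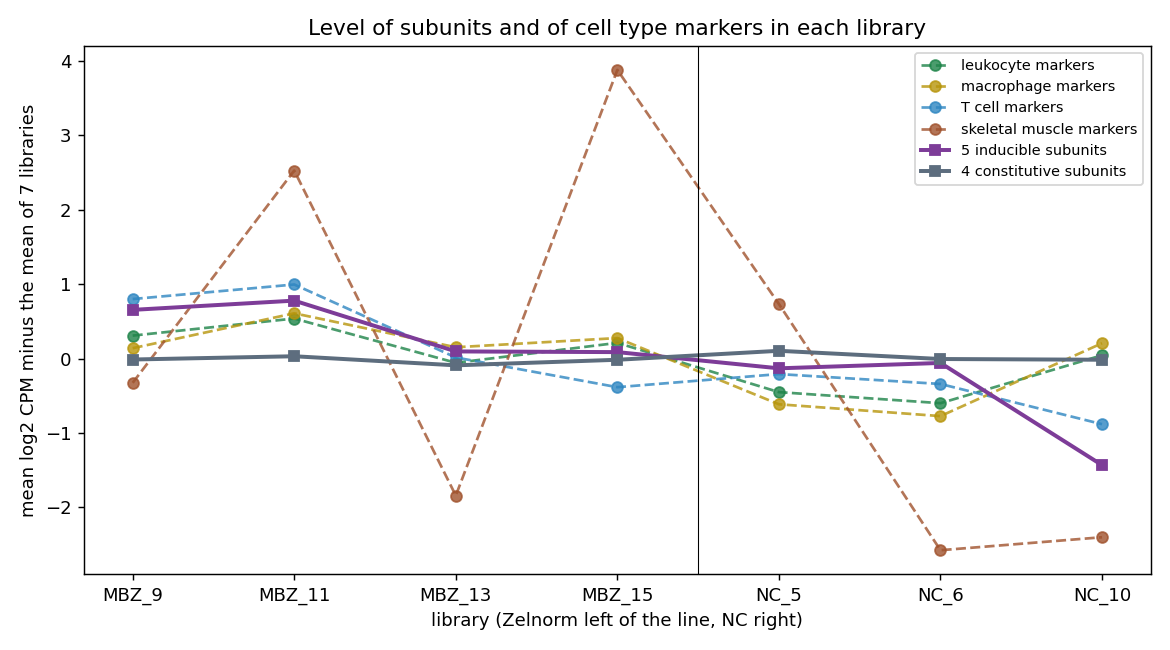
Mean log2 CPM of the 5 inducible and the 4 constitutive subunits and of 4 cell type marker lists in each library, as the difference from the mean of the 7 libraries (y axis). Lines between libraries only guide the eye. NC_10 is the lowest library for the inducible subunits and, on low counts, for the T cell marker mean, while its leukocyte and macrophage markers are above those of NC_5 and NC_6.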

How the data were processed

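Gene counts were used as the authors deposited them, unnormalized, each library in its own column and with no pooling. Per the submitters' processing notes, Trimmomatic, HISAT2, Cufflinks, HTSeq and DESeq were used and GRCh38 and GRCm38 are named as builds, while the annotation and the strand setting of the counting are not stated there. Per the labels' protocols, libraries were made with a stranded mRNA kit. Columns name the group but no replicate number of the labels. Genes were filtered with filterByExpr (12997 of 21878 kept), scaled by TMM (factors 0.986 to 1.01) and compared with edgeR 4.0.16 (quasi-likelihood test, Benjamini-Hochberg adjustment over all genes at 0.05) in R 4.3.3. SEs come from the fold change and the square root of F, and log2 CPM used a prior count of 2. Ratios were tested by an exact permutation over all 35 splits, and adjusted over the 4 ratios. Exon lengths came from GENCODE M21 (GRCm38) and gene positions from RefSeq. Named were all members, up to 4 genes per pathway list by smallest p, the interferon gamma axis (1 gene of it is not reported here), Tap1 and Tap2, and the 5 genes most like the inducible mean. Psmc1 to Psmc6, the chaperones, Psma8, Psmb11, Pmel and Mitf were named after their values were seen. The members, lists, ratios and motifs were chosen with earlier results of these data known. Other scalings and filters, DESeq2 1.42.0, limma voom (limma 3.58.1), a leukocyte covariate, medians and leaving out libraries were tried. Counting error is small at these depths, where 3 counts equal 0.153 to 0.178 CPM. The fit was also run on simulated data in which every gene had the same biological variation (coefficient 0.111). The inducible subunits varied more than that, so the simulation does not cover them. Figures were drawn with matplotlib 3.10.9.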

Additional observations from a re-analysis of the deposited data

How the results depend on the processing

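Under every scaling, filter, tool, covariate and set of libraries tried, none of the 9 members passed the adjusted threshold (134 of 135 alternative values kept sign and side), and the exception was the sign of the Psmb6 fold change, 0.0258 without NC_5 (range -0.102 to 0.0258 with single libraries left out). Adjusted p of Psmb8 ran from 0.136 to 0.999 and its log2 fold change from 0.96 to 1.73. No paired analysis was possible because no column name holds a replicate number from the titles. Over all genes, edgeR called 4 higher and 0 lower (902 and 439 with unadjusted p below 0.05). DESeq2 called 171 and 35 and the fit without a filter 29 and 5. The leukocyte covariate and leaving out the 3 libraries highest in muscle markers each left 0 higher (788 and 547 genes in either direction with unadjusted p below 0.05). Leaving out single libraries gave 0 to 157 higher (0 without NC_5, where 977 had an unadjusted p below 0.05, 19 without MBZ_15, 157 without NC_10) and 0 to 4 lower (4 without NC_10, 2 without MBZ_15).

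The ratio differences stayed positive throughout. With single libraries left out they ran from 0.990 to 1.87 (Psmb8 to Psmb5), 0.791 to 2.01 (Psmb9 to Psmb6), 0.365 to 0.992 (Psmb10 to Psmb7), 0.370 to 0.804 (Psme1 and Psme2 to Psme3) and 0.570 to 1.25 (all members), the lowest without NC_10 in each. Sets of 6 libraries cannot give an exact p under 0.0667, or 0.1 with 3 against 3. Without the 3 libraries highest in muscle markers, NC_6 and NC_10 were the NC libraries left, so NC_10 weighed more. The ratio differences of Psmb8, Psmb9 and the activators were then 1.51, 1.87 and 0.745, with too few libraries for a call. As differences of medians over all 7 libraries they were 1.46, 1.05 and 0.393 (exact permutation p = 0.0571, 0.114 and 0.114), no longer past 0.05. Different splits can share a difference of medians, so groups without overlap need not reach the lowest exact p. Psme1 alone to Psme3 gave 0.474 (exact permutation p = 0.143). Library depth does not limit these genes, as the lowest member had 156 counts in a library.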
